A study of Homo sapiens with 12 samples.

Results

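The genes described here are 40 genes of the G2 phase and of mitosis, chosen by name from the proteins that carry a cell from the end of DNA replication through chromosome segregation to cell division. The rule that chose them uses their names and their detection and no difference between groups, although the list was drawn up with earlier results of these data known. The array carried 57 probes for them, of which 55 were detected. Detected means that both arrays of 1 group or more had a detection p below 0.01. All 40 genes had a detected probe and are among the 8113 genes tested. Each of the 55 probes was detected on all 12 arrays, so no member passed the filter through 1 treatment alone. A gene was measured by its brightest detected probe.

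The cells were L540, an established Hodgkin lymphoma line that carries CD30 (TNFRSF8), a receptor of the TNF receptor superfamily that signals through TRAF adaptors. Gene expression was measured on Illumina HumanHT-12 v3 BeadChips in 6 groups of 2 biological duplicates, and the study asked what antibodies to different CD30 epitopes do to the cells. All 6 groups were the same CD30-positive line, precultured for 16 h and kept in the used medium. They were left untreated or given the Fc fusion protein of CD30 ligand (CD153), named CD30L-Fc here, the mouse/human chimeric monoclonal antibody PW30, or 1 of the monoclonal antibodies T104, T427 and T408, at a final 10 µg/ml. The design text gives 8 h of treatment and calls the 24 h of the sample names wrong, while the growth protocol also gives 24 h. The same text writes T428 where the sample names have T408, and T408 is used here. Neither a non-binding antibody nor an Fc protein without ligand was among the groups analysed here. L540 is a single line grown alone, so the arrays hold no other patient's cells and no tumour surroundings.

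A dividing cell makes most mitotic proteins anew in each cycle and destroys them at its end. In resting cells and in G1 their genes are held silent by the DREAM complex, which binds the cell cycle homology region, written TTTGAA or TTCGAA, near the start site. In S and G2 phase MYBL2 and FOXM1 activate the same genes. Many of these genes also have CCAAT boxes, which the factor NF-Y binds. Cyclin A and cyclin B then drive CDK1, the kinase that starts mitosis, and the anaphase-promoting complex ends mitosis by marking cyclins and securin for destruction. Because these messages peak in G2 and mitosis, their level in a culture is widely read as a sign of proliferation. In arrays of whole cultures, fewer cells in G2 and mitosis and less RNA per such cell cannot be told apart.

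The promoter sequences are shown first because most members with a window hold these letters, which the choice of genes did not use. The motifs are ones already tied to mitotic genes, so the shares below describe the list and test nothing. RefSeq windows of 300 bases, from 250 before to 50 after the start site on build GRCh38.p14, were found for 35 of the 40 members. TTTGAA or TTCGAA, on either strand, stood in 26 of the 35 windows (74.3%), against 11.8% of the 6771 windows of tested genes and 16.6% of all 27305 windows. CCAAT, on either strand, stood in 27 of them (77.1%), against 38.1% of the windows of tested genes and 35.7% of all. Both motifs stood in 22 members (62.9%), against 5.29% of the windows of tested genes and 6.58% of all. The motifs can share at most 1 base at an end, and TTCGAA reads the same on both strands. A match is a description of letters and not a binding site.

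Stretches of 3 windows are printed because these members hold the cell cycle homology letters and have the smallest p in the test over all 6 groups among those that do. The stretches of CCNA2 and KIF20A follow because both genes were called lower in a treatment and hold CCAAT. They were chosen after their values were seen. Capitals mark the homology letters TTTGAA, which appear as TTCAAA where they lie on the opposite strand. They also mark the box CCAAT, which then appears as ATTGG. Each line is written 5′ to 3′ on the strand of the gene.
NUSAP1, chr15:41332631-41332909, plus strand: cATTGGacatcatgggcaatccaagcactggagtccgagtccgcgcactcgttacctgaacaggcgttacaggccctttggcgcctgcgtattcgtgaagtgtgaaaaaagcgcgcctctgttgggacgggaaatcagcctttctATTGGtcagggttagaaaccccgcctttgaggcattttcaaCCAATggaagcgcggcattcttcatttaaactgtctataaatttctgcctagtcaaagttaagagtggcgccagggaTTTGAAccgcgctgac
DLGAP5, chr14:55191567-55191733, minus strand: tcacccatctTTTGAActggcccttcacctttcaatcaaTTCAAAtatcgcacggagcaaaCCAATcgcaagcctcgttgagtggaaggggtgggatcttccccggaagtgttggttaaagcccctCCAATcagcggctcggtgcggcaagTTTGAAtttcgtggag
ASPM, chr1:197146680-197146813, minus strand: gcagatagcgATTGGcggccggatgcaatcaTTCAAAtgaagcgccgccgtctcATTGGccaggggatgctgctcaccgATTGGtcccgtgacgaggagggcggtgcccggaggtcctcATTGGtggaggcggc
CCNA2, chr4:121823925-121823949, minus strand: gagcgctttcATTGGtccatttcaa
KIF20A, chr5:138179008-138179059, plus strand: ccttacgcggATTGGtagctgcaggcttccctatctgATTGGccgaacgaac
DLGAP5 holds the homology letters 3 times and NUSAP1 and ASPM once each. ASPM holds CCAAT 4 times, NUSAP1 3 times, DLGAP5 and KIF20A 2 times and CCNA2 once. CENPE and CDC25B, the other members called in a treatment against untreated cells, hold neither set of letters in their windows. The windows of CCNA2 and KIF20A hold CCAAT without TTTGAA or TTCGAA. Only these letters were searched, in a single window per gene, so their absence does not show that a gene lacks the homology region.

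Across the 12 arrays the median signal before normalization lay between 129.87 and 151.68 and the number of detected probes between 10910 and 12005. On the arrays of T427, T408 and PW30 that median was at most 136.312 and on those of untreated and CD30L-Fc cells at least 144.038. Its part in the differences described here was not tested. Of 8 markers of Hodgkin and Reed-Sternberg cells 7 were detected in a group. IRF4, FSCN1, FUT4, CD274 and TRAF1 were detected on all 12 arrays, TNFRSF8 on 11 and CCL17 on 6, while PAX5 was detected on none. None of the 6 B cell markers with a probe and none of 9 fibroblast and epithelial markers was detected. Of the T cell markers 2 of 9 (CD2 and CD4) and of the monocyte and macrophage markers 1 of 8 (CSF1R) were detected, while CD3D, CD3E, CD3G and CD14 were not. Duplicates correlated at a Pearson's r of 0.991 to 0.993 over all probes.

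Levels are log2 signals after background correction and quantile normalization. They are never set against another gene's level, since probes differ in brightness. A change is the log2 difference of 2 group means, given ± its standard error (SE) from limma's linear model over all 12 arrays, with n = 2 arrays per group. A gene is called, and said to rise or fall, where limma's two-sided test gives an adjusted p below 0.05 after Benjamini-Hochberg adjustment over all 8113 genes of the comparison. All treatments are compared with the same 2 untreated arrays, so the 5 comparisons are not independent of each other. The duplicates were prepared as biological duplicates by the design text, and p-values measure only the spread between such cultures.

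Few of the 40 genes were called, and each call was a fall of less than 2-fold. CENPE, KIF20A, CCNA2 and CDC25B were the members called against untreated cells. CENPE was called after T104 and PW30, KIF20A after PW30, and CCNA2 and CDC25B after T104. No member was called higher against untreated cells, where 5.46% of all genes were after CD30L-Fc, 5.92% after T104, 6.27% after PW30, 0.32% after T427 and 0.271% after T408. After PW30, 2 of 40 members fell, where 11.1% of all genes were called and 4.79% were called lower. After T104, 3 of 40 fell, where 9.44% of all genes were called and 3.53% were called lower. At an unadjusted p below 0.05 there were 9 members after PW30 and 5 after T104, all lower. The share of all genes at that p is not given here for PW30 and T104. After CD30L-Fc limma called 0 of 40 (8.33% of all genes called, 2.87% lower), with 8 members at an unadjusted p below 0.05, all lower, as were 10.9% of all genes. After T427 it called 0 of 40 (0.333% of all genes), with 0 at an unadjusted p below 0.05 (7.51% of all genes). After T408 it called 0 of 40 (0.271% of all genes), with 1 at an unadjusted p below 0.05 (7.99% of all genes), PRC1, which was higher. Falls thus made up 5% of members against 4.79% of all genes after PW30, and 7.5% against 3.53% after T104, and rest on 2 and 3 genes.

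CENPE encodes a kinesin of the kinetochore that carries chromosomes to the metaphase plate. Its log2 signal was 11.54 and 11.54 on the untreated arrays, 11.19 and 11.14 after CD30L-Fc, 11.17 and 10.99 after T104 and 10.90 and 10.82 after PW30. It was 11.31 and 11.62 after T427 and 11.35 and 11.44 after T408. Both arrays of CD30L-Fc, T104, PW30 and T408 lay below both untreated arrays, the PW30 pair lowest of all 12, and the T427 pair spanned the untreated level. CENPE fell by 0.68 ± 0.13 after PW30, or 1.60-fold (95% interval -0.96 to -0.40, adjusted p = 0.00471). After T104 it fell by 0.46 ± 0.13, or 1.38-fold (adjusted p = 0.0438). The difference after CD30L-Fc was -0.38 ± 0.13 (adjusted p = 0.102) and was not called. The PW30 call held when any 1 of the untreated or PW30 arrays was left out, whereas the T104 call was lost without any 1 of the untreated or T104 arrays, with adjusted p between 0.0816 and 0.255.

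KIF20A encodes a kinesin of the central spindle that is needed for cytokinesis. Its log2 signal was 10.93 and 11.06 on the untreated arrays, 10.67 and 10.71 after CD30L-Fc, 10.57 and 10.77 after T104 and 10.66 and 10.39 after PW30. It was 10.88 and 10.93 after T427 and 10.98 and 11.04 after T408. The 6 arrays of CD30L-Fc, T104 and PW30 lay below both untreated arrays, while the T427 and T408 arrays overlapped them. KIF20A fell by 0.47 ± 0.13 after PW30, or 1.38-fold (adjusted p = 0.0358). The differences of -0.30 after CD30L-Fc (adjusted p = 0.194) and -0.32 after T104 (adjusted p = 0.154) were not called. The PW30 call was lost without untreated array 1 (adjusted p = 0.0656), untreated array 2 (0.142) or PW30 array 2 (0.21).

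CCNA2 encodes cyclin A2, which activates CDK2 in S phase and CDK1 in G2. Its log2 signal was 12.68 and 12.49 on the untreated arrays, 12.14 and 12.21 after CD30L-Fc, 12.13 and 12.07 after T104 and 12.33 and 12.06 after PW30. It was 12.34 and 12.57 after T427 and 12.47 and 12.33 after T408. All arrays of CD30L-Fc, T104, PW30 and T408 lay below both untreated arrays, and 1 T427 array lay between them. CCNA2 fell by 0.48 ± 0.14 after T104, or 1.40-fold (adjusted p = 0.0459). It differed by -0.41 after CD30L-Fc (adjusted p = 0.093) and by -0.39 after PW30 (adjusted p = 0.0921), neither of which was called. The T104 call was lost when any 1 of the untreated or T104 arrays was left out, with adjusted p between 0.0612 and 0.194.

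CDC25B encodes a phosphatase that removes inhibitory phosphates from CDK1 as mitosis starts. Its log2 signal was 11.58 and 11.61 on the untreated arrays, 11.24 and 11.33 after CD30L-Fc, 11.25 and 11.06 after T104 and 11.28 and 11.53 after PW30. It was 11.49 and 11.45 after T427 and 11.35 and 11.31 after T408. All 10 treated arrays lay below both untreated arrays. CDC25B fell by 0.44 ± 0.12 after T104, or 1.36-fold (adjusted p = 0.0452). It was not called after CD30L-Fc (-0.30, adjusted p = 0.176) or PW30 (-0.19, adjusted p = 0.364). This call too was lost when any 1 of the untreated or T104 arrays was left out, with adjusted p between 0.0768 and 0.271.

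**Figure D1:**
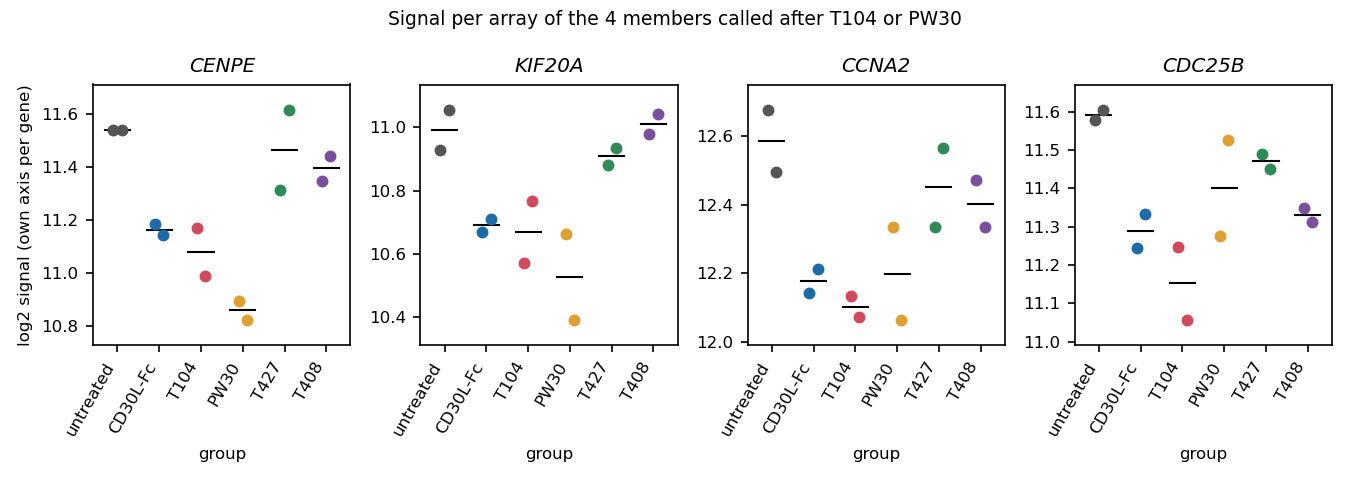
Log2 signal (vertical axis, own scale for each gene) of CENPE, KIF20A, CCNA2 and CDC25B on each of the 12 arrays, by group (horizontal axis). Points are arrays and bars are group means of 2 arrays, and the PW30 arrays of CENPE are the lowest of the 12, at 10.90 and 10.82.

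The remaining cyclins and CDK1 partners were not called in any treatment. CCNB1, the main mitotic cyclin, differed from untreated cells by -0.31 after CD30L-Fc, -0.25 after T104 and -0.10 after PW30 (adjusted p = 0.308, 0.401 and 0.752). After T408 its difference was -0.30 (adjusted p = 0.7), the lowest of all members in that treatment, and after T427 it was 0.12. CCNB2, a second B-type cyclin, had the smallest range of all members over the 12 arrays, 0.28 on the log2 scale. CDK1 lay between 12.58 and 12.89 on the 12 arrays. Its differences from untreated cells ran from -0.12 after T104 to 0.08 after T427. CKS1B and CKS2, small proteins that bind cyclin-dependent kinases, differed by 0.02 and -0.24 after CD30L-Fc. CDC25C, another phosphatase that activates CDK1, differed by -0.05 after CD30L-Fc, -0.18 after T104 and -0.27 after PW30. Over these 8 genes the median difference was -0.17 after CD30L-Fc, -0.17 after T104 and -0.10 after PW30, the last moving to -0.19 with arrays scaled by their medians.

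The mitotic kinases PLK1, AURKA and NEK2 were not called. PLK1, which acts at centrosomes, kinetochores and the midbody, differed by -0.26 after PW30 (adjusted p = 0.224), its largest difference. AURKA, the centrosomal aurora kinase, differed by -0.26 after T427 and by -0.14 to -0.16 after CD30L-Fc, T104 and PW30. NEK2, a kinase that helps centrosomes separate, differed by -0.27 after T104. The median difference of these kinases was -0.11 after CD30L-Fc, -0.15 after T104 and -0.14 after PW30 (-0.22 with median scaling).

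The chromosomal passenger complex corrects wrong attachments of chromosomes to the spindle, and no gene of it was called. AURKB, its kinase, ranged from -0.21 after T408 to 0.03 after CD30L-Fc. BIRC5, which encodes survivin, differed by -0.17 after PW30 (adjusted p = 0.512). CDCA8, which encodes borealin, differed by -0.34 after PW30 (adjusted p = 0.158) and -0.30 after CD30L-Fc (adjusted p = 0.272).

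Of the spindle checkpoint, which delays anaphase until all chromosomes are attached, no gene was called. BUB1, a checkpoint kinase, differed by -0.28 after CD30L-Fc (adjusted p = 0.214) and lay below the untreated mean in all 5 treatments. BUB1B, which encodes BUBR1, was the member with the highest difference after PW30, 0.31 (adjusted p = 0.316). Its PW30 duplicates of 8.00 and 8.51 overlapped the untreated values of 8.09 and 7.80. TTK, the kinase also named MPS1, differed by -0.29 after PW30 (adjusted p = 0.196). MAD2L1, which holds CDC20 inactive, differed by -0.25 after CD30L-Fc, -0.28 after T104 and -0.19 after PW30.

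Among the partners of the anaphase-promoting complex, CDC20 activates the complex in mitosis. Its log2 signal of 13.01 and 13.02 after PW30 lay below 13.23 and 13.58 on the untreated arrays. The difference of -0.39 ± 0.14 was not called (adjusted p = 0.0872). CDCA3, an adaptor for the destruction of the WEE1 kinase, lay at 11.02 and 11.15 after CD30L-Fc against 11.41 and 11.44 on the untreated arrays. Both CD30L-Fc arrays were lower, yet its difference of -0.34 ± 0.11 was not called (adjusted p = 0.0793). UBE2C, the ubiquitin-conjugating enzyme of the complex, differed by -0.21 after CD30L-Fc (adjusted p = 0.453).

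The kinetochore genes other than CENPE were not called. NDC80 and NUF2 encode subunits of the complex that grips microtubules. NDC80 had the largest difference between untreated duplicates of all members, 0.60. NUF2 lay at 9.79 and 9.32 on the untreated arrays and at 9.19 and 9.02 after CD30L-Fc. Both CD30L-Fc arrays were below both untreated arrays, and the difference of -0.45 ± 0.21 was the largest of all members after CD30L-Fc (adjusted p = 0.231). A second, dimmer probe of NUF2 differed by only -0.04 after CD30L-Fc. NUF2 also had the largest range over the 12 arrays, 0.82. CENPF, a large protein of the outer kinetochore, differed by 0.12 after CD30L-Fc and -0.18 after PW30. With CENPE the kinetochore members had a median difference of -0.28 after CD30L-Fc, -0.29 after T104 and -0.27 after PW30.

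The kinesins are motors that shape the spindle, and KIF20A was the only 1 of the 5 called. KIF23, a motor of the central spindle, differed by -0.33 after T104 (adjusted p = 0.193) and -0.35 after PW30 (adjusted p = 0.144). KIF2C, which takes microtubules apart at the centromere, lay below the untreated mean in all 5 treatments, with differences between -0.30 and -0.22. KIF11, which pushes spindle poles apart, ran from -0.22 after T104 to 0.16 after T427. KIF4A, a chromosome-bound motor, was the only member above the untreated mean in all 5 treatments, by 0.03 to 0.30, and with arrays scaled by their medians its difference after PW30 turned to -0.06. The kinesin median was -0.22 after CD30L-Fc, -0.25 after T104 and -0.23 after PW30 (-0.35 with median scaling).

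No spindle assembly gene was called. DLGAP5, which bundles microtubules at the kinetochore, lay at 11.46 and 11.19 on the untreated arrays and at 10.78 and 10.99 after CD30L-Fc, a difference of -0.44 ± 0.17 (adjusted p = 0.159). ASPM, a protein of the spindle poles, differed by -0.40 after PW30 (adjusted p = 0.13). NUSAP1, a microtubule-binding protein, differed by -0.32 after PW30 (adjusted p = 0.167) and 0.07 after CD30L-Fc. HMMR differed by -0.21 after PW30 and TPX2, an activator of AURKA, by -0.02. PRC1, which crosslinks microtubules of the central spindle, differed by 0.27 after T408 (adjusted p = 0.613) and 0.18 after both CD30L-Fc and T104. The median of the group was 0.04 after CD30L-Fc, -0.16 after T104, -0.27 after PW30 and 0.11 after T408.

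The cytokinesis genes and the remaining members were not called either. ANLN, a scaffold of the cleavage furrow, differed by -0.17 after PW30 and -0.09 after CD30L-Fc. ECT2, which activates RhoA at the furrow, differed by -0.22 after PW30 and 0.06 after T104. TOP2A, the topoisomerase that untangles sister chromatids, lay at 13.11 and 13.20 after PW30 against 13.55 and 13.36 on the untreated arrays. The PW30 arrays were lower, and the difference of -0.30 was not called (adjusted p = 0.116). MKI67, the gene of the Ki-67 proliferation marker, differed by -0.17 after CD30L-Fc, -0.23 after T104 and -0.11 after PW30 (adjusted p = 0.493, 0.322 and 0.637).

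**Figure D2:**
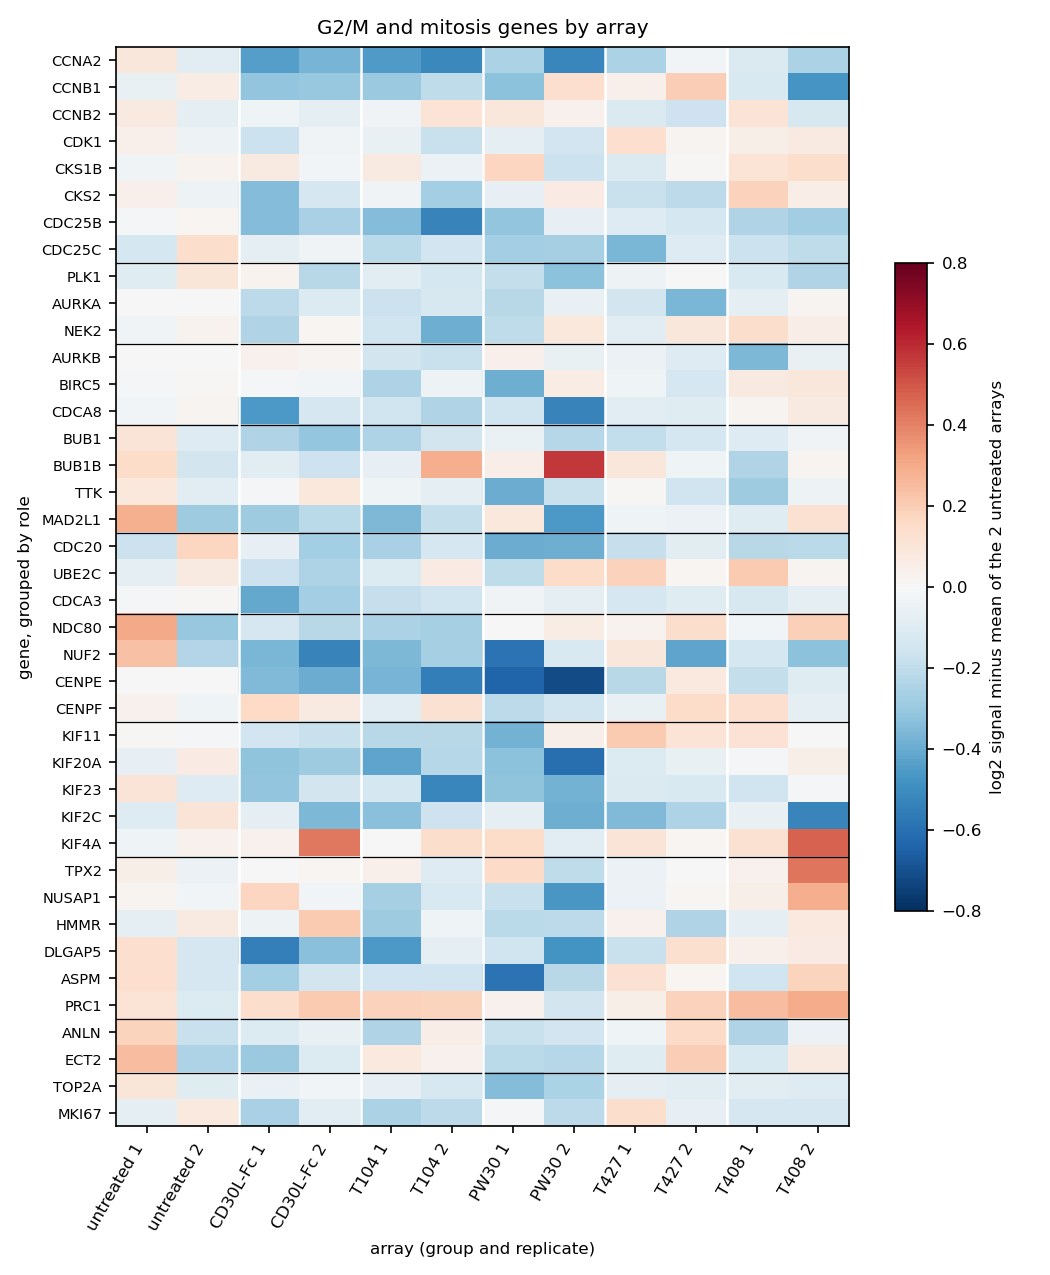
Log2 signal of each of the 40 members (rows, grouped by role) on each of the 12 arrays (columns), minus the mean of the 2 untreated arrays. Blue shades and red shades stand for lower and higher signal, and the lowest member median lies on PW30 array 1, at -0.20.

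Although few members were called, their differences leaned to lower values after CD30L-Fc, T104 and PW30. The median member difference was -0.17 after CD30L-Fc, where the median of all 8113 genes was -0.04. It was -0.17 after T104 against -0.04, and -0.18 after PW30 against -0.05. With arrays scaled by their medians the PW30 values were -0.27 against -0.13. After T427 the member median was -0.06 against -0.01, and -0.02 without untreated array 1. After T408 it was -0.02 against -0.02, and it turned to 0.02 with median scaling. The T408 median was also 0.03 without untreated array 1, 0.01 without T408 array 1, and -0.08 without untreated array 2 or T408 array 2. Members lay below the untreated mean in 31 of 40 after CD30L-Fc, 33 after T104, 35 after PW30, 26 after T427 and 21 after T408. Of all genes 55.8%, 57.5%, 58.0%, 53.5% and 53.8% did so. The members belong to a shared programme and are not independent of each other, so these counts and medians carry no test.

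The lean was also seen array by array. The median over the 40 members, relative to the untreated means, was -0.16 and -0.14 on the CD30L-Fc arrays, -0.18 and -0.15 on the T104 arrays and -0.20 and -0.17 on the PW30 arrays. On the T427 arrays it was -0.05 and -0.04 and on the T408 arrays -0.08 and 0.01. On the untreated arrays it was 0.02 and -0.02. Thus each CD30L-Fc, T104 and PW30 array lay below each T427 and T408 array on this measure. Over all genes the same median lay between -0.05 and 0.01 on every array.

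The 2 treated and 2 untreated arrays overlapped for 18 members after CD30L-Fc, 18 after T104, 21 after PW30, 28 after T427 and 22 after T408. Both treated arrays lay below both untreated arrays for 18 members after CD30L-Fc (28.2% of all genes), 21 after T104 (29.3%) and 19 after PW30 (30%). The numbers were 11 after T427 (18.7%) and 10 after T408 (19.5%). Both treated arrays lay above both untreated arrays for 4 members after CD30L-Fc (21.5% of all genes), 1 after T104 (21.2%), 0 after PW30 (21.1%), 1 after T427 (15.4%) and 8 after T408 (15.3%). PW30 gave the lowest of the 6 group means for 17 members, against 25.3% of all genes. The highest group mean was that of T408 for 14 members and of untreated cells for 13, against 15.1% and 24.8% of all genes. Of the members 13 lay below the untreated mean in all 5 treatments, and 24.8% of all genes did. These 13 were CCNA2, CDC25B, CDC25C, PLK1, AURKA, BUB1, CDC20, CDCA3, NUF2, CENPE, KIF23, KIF2C and TOP2A. With arrays scaled by their medians 12 did, since AURKA turned to 0.01 after T408.

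**Figure D3:**
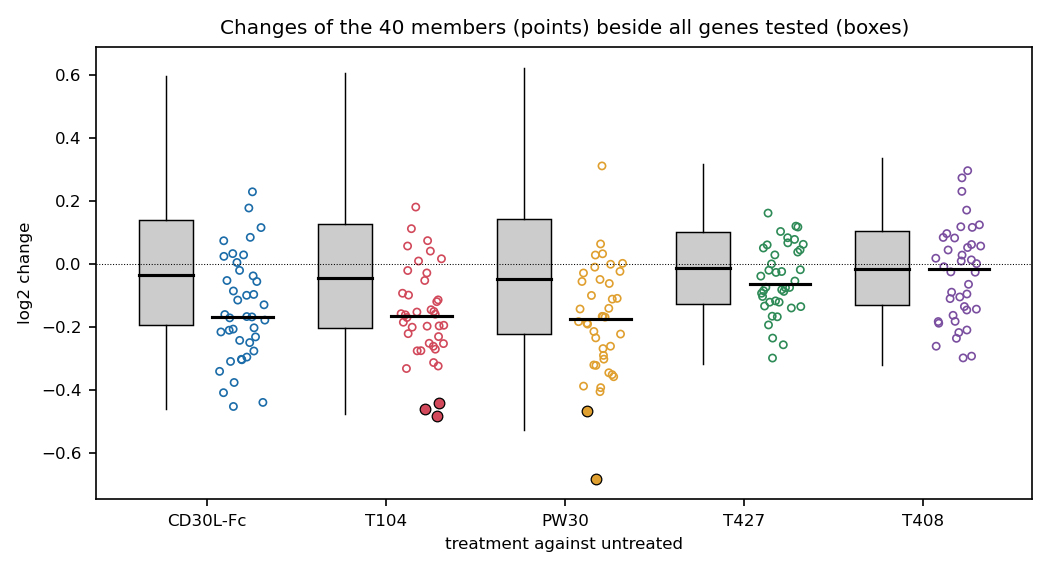
Log2 change against untreated cells (vertical axis) of the 40 members (points) in each of the 5 treatments (horizontal axis), beside boxes of the quartiles of all 8113 genes with lines to their 5% and 95% points. Filled points are called members and thick bars are medians. The member median lies at -0.17 (CD30L-Fc), -0.17 (T104), -0.18 (PW30), -0.06 (T427) and -0.02 (T408).

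The size of change that this design can exclude is limited. The 95% interval of a single member's difference had a median half-width of 0.30. That interval lay within 1 log2 unit of no change, a 2-fold difference, for all 40 members in each of the 5 treatments. It lay within 0.5 for 20 members after CD30L-Fc, 23 after T104, 21 after PW30, 36 after T427 and 31 after T408. The smallest change called over all genes was 0.39 after CD30L-Fc, 0.39 after T104, 0.38 after PW30, 0.67 after T427 and 0.69 after T408. A fall of the size of the member median was thus below what could be called for a single gene. With 2 arrays a side, exact permutation p-values stop at 0.333, and no such test was used.

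Pooling the treated arrays uses all 10 of them. In the mean of the 5 treatments against untreated cells limma called 0 of 40 members, with 4 at an unadjusted p below 0.05, all lower (10.4% of all genes), while it called 7.26% of all genes. CENPE had the largest mean difference, -0.35 ± 0.10 (adjusted p = 0.0583), followed by CCNA2 at -0.32 ± 0.11 (adjusted p = 0.102). PRC1 and KIF4A had the highest, both 0.14 (adjusted p = 0.466 and 0.599). Without T427 array 2 the count of called members was 1 in place of 0. Members lay below the untreated mean in 34 of 40 cases here, against 57.9% of all genes.

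**Figure D4:**
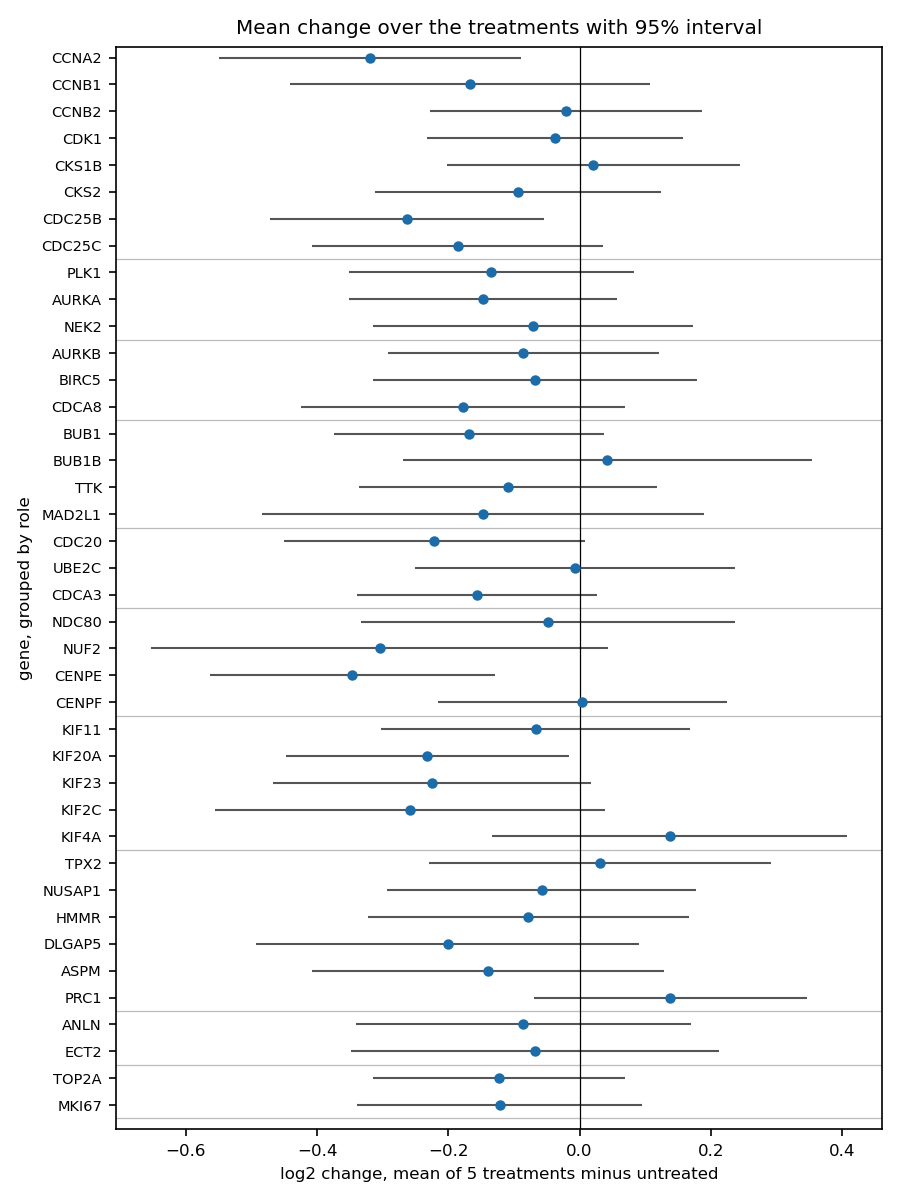
Mean log2 change over the 5 treatments against untreated cells (horizontal axis) of each member (vertical axis, grouped by role), with its 95% interval. The intervals of CCNA2, CDC25B, CENPE and KIF20A lie below 0 before adjustment over the 8113 genes, and no member is called.

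The question of whether the members differ between treatments was put to the test of all 6 groups and to the 10 pairs of treatments. In limma's F test over the 6 groups CENPE was the 1 member called (adjusted p = 0.0205), against 10.2% of all genes. That call was lost without PW30 array 1 or PW30 array 2. KIF20A followed with an adjusted p of 0.0879. Of the 400 values of a member in a pair of treatments 3 were called, where 3.61% of all gene and pair values were. CENPE was lower after PW30 than after T427 by a log2 difference of -0.61 ± 0.13 (adjusted p = 0.0135, with 7.48% of all genes called). It was also lower after PW30 than after T408, by -0.54 ± 0.13 (adjusted p = 0.0284, with 6.68% of all genes called). KIF20A was lower after PW30 than after T408 by -0.49 ± 0.13 (adjusted p = 0.0444).

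These pair calls rested on few arrays. The call of CENPE between PW30 and T427 was lost without T427 array 2, PW30 array 1 or PW30 array 2. Its call between PW30 and T408 was lost without any 1 of those 4 arrays. The KIF20A call was lost without T408 array 1, T408 array 2 or PW30 array 2. Between CD30L-Fc and T104, CENPE differed by 0.08 (95% interval -0.20 to 0.37) and KIF20A by 0.02 (95% interval -0.26 to 0.30). Neither was called, which does not show that the agents act alike. In both that pair and the pair of T427 and T408 limma called 0 members and 0% of all genes. At an unadjusted p below 0.05 there were 0 members between CD30L-Fc and T104 (3.44% of all genes) and 2 between T427 and T408 (4.76%).

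For 14 members a second probe allowed a check within the gene, in a fit over all 10352 detected probes with 1 gene. The second probe of CENPE differed by -0.37 after T104 (adjusted p = 0.228) and -0.38 after PW30 (adjusted p = 0.187), in the direction of the brightest probe, and was not called. In that fit the brightest CENPE probe had an adjusted p of 0.00637 after PW30 and of 0.0521 after T104. KIF20A, CCNA2 and CDC25B have 1 detected probe each and no such check. The brightest and second probes had the same sign in 11 of 14 members after CD30L-Fc, 12 after T104 and 10 after PW30, and in 6 after T427 and 5 after T408.

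The probes of CDC25C disagreed. Its second probe lay at 8.28 and 8.20 on the untreated arrays, at 7.79 and 7.59 after CD30L-Fc and at 7.34 and 7.76 after T104. The treated arrays were all lower. That probe fell by 0.55 ± 0.15 after CD30L-Fc (adjusted p = 0.0483) and by 0.69 ± 0.15 after T104 (adjusted p = 0.014). The brightest probe of CDC25C differed by -0.05 and -0.18 in the same comparisons, and the third by 0.06 and -0.02. This probe was the only member probe called after CD30L-Fc and after T104 in the fit over probes, which called 7.46% and 8.33% of all probes. After PW30 that fit called 2 member probes and 9.92% of all probes. Other members also had probes of opposite sign. For NUSAP1 the brightest and second probes differed by 0.07 and -0.37 after CD30L-Fc and by -0.32 and 0.09 after PW30. For NUF2 they differed by -0.31 and 0.20 after T104. After CD30L-Fc the probes of CKS1B (0.02 and -0.21) and HMMR (0.08 and -0.13) were opposite too. Which transcripts these probes read was not analysed here.

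**Figure D5:**
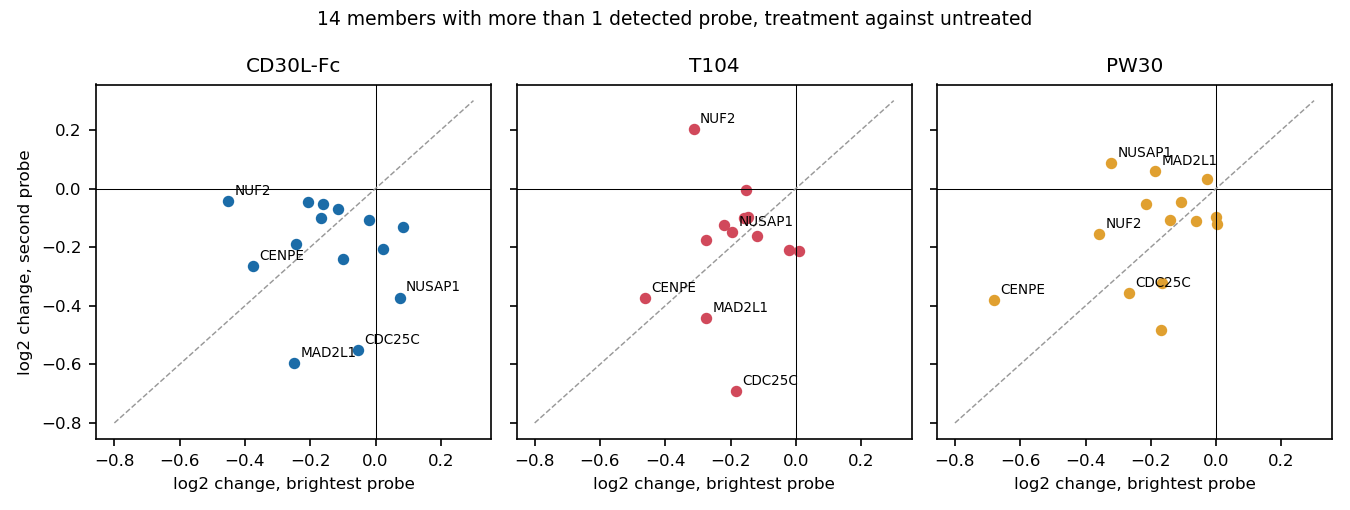
Log2 change against untreated cells of the second probe (vertical axis) against that of the brightest probe (horizontal axis) for the 14 members with more than 1 detected probe, with 1 panel per treatment. The second probe of CDC25C lies at -0.55 after CD30L-Fc and -0.69 after T104, below its brightest probe at -0.05 and -0.18.

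Other genes of the cell cycle were counted in lists chosen by function. After T427 and T408 limma called 0 of the 183 genes of the 8 lists. At an unadjusted p below 0.05 there were 8 and 15 of them, against 7.51% and 7.99% of all genes. The share of all genes called in each treatment is the one given above. The share at an unadjusted p below 0.05 in either direction is not given for CD30L-Fc, T104 and PW30. Counts at that p in the lists below are thus not read as an excess or a lack. Among 20 tested regulators of mitotic gene transcription, which include FOXM1, MYBL2 and the DREAM subunits, 1 fell after CD30L-Fc, 1 rose and 1 fell after T104 and 1 fell after PW30. NFYB, a subunit of NF-Y, was detected on both untreated arrays and on no CD30L-Fc or T104 array. Taking the lowest detected signal of each array as the bound, NFYB was at least 1.41-fold lower after CD30L-Fc and at least 1.28-fold lower after T104. These bounds were not tested. The falls counted here for NFYB rest on limma's adjusted p of 0.0119 after CD30L-Fc and 0.0204 after T104. Both used treated signals below detection, so their sizes are not given. The NFYB calls were lost under 3 and 4 of 15 alternatives. TFDP2, a partner of E2F factors, rose by 0.73 after T104, and E2F5, a repressive E2F factor, fell by 0.65 after PW30.

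Of 14 tested genes of mitotic entry and exit, 1 rose after CD30L-Fc, 1 after T104 and 2 after PW30, where 1 fell. CDC14A, a phosphatase that removes phosphates placed by cyclin-dependent kinases, lay at 7.90 and 7.99 on the untreated arrays. It lay at 8.99 and 9.13 after CD30L-Fc, 8.98 and 8.96 after T104 and 9.08 and 8.88 after PW30, all above the untreated arrays. CDC14A rose by 1.11 ± 0.13, 1.02 ± 0.13 and 1.03 ± 0.13 in these treatments (adjusted p = 0.000208, 0.000362 and 0.000351). Its difference of 0.73 after T408 was not called (adjusted p = 0.053). GADD45A, a stress-induced inhibitor of the G2 to M transition, rose by 0.49 and CCNY, a membrane-bound cyclin, fell by 0.69 after PW30.

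Of 12 tested subunits of the anaphase-promoting complex, ANAPC15 rose after PW30, by 0.56 ± 0.13, and limma called 0 after CD30L-Fc and T104, with 0 and 1 at an unadjusted p below 0.05. Of 18 tested genes of condensin, cohesin and separase, 4 fell and 0 rose after PW30, and limma called 0 after CD30L-Fc and T104, with 1 and 4 at an unadjusted p below 0.05. NCAPD3, a condensin II subunit, fell by 0.63 ± 0.14 and SGO2, which guards centromeric cohesin, by 0.59 ± 0.13. SMC4 and SMC2, the ATPases of both condensins, fell by 0.54 ± 0.13 and 0.46 ± 0.13. The median of this list after PW30 was -0.17, against -0.05 for all genes. Of its 18 genes 10 lay below the untreated mean after PW30, as did 58.0% of all genes.

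Of 36 tested further kinetochore and centromere genes, 3 fell after CD30L-Fc, 2 after T104 and 0 after PW30, where 8 had an unadjusted p below 0.05. SPC24, a subunit of the NDC80 complex with NUF2, lay at 9.81 and 9.89 on the untreated arrays and at 9.24 and 9.29 after CD30L-Fc. It fell by 0.59 ± 0.12 after CD30L-Fc (adjusted p = 0.00822) and by 0.45 ± 0.12 after T104 (adjusted p = 0.0353). After PW30 SPC24 differed by -0.39 (adjusted p = 0.0581). SPC25, its partner in that complex, fell by 0.45 ± 0.12 after CD30L-Fc. CENPM, a protein of the inner kinetochore, fell by 0.51 ± 0.13 after CD30L-Fc and by 0.52 ± 0.13 after T104.

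Of 37 tested further spindle, centrosome and cytokinesis genes, 1 rose and 1 fell after CD30L-Fc, 1 rose after T104 and 5 fell after PW30. NEDD1, which brings gamma-tubulin to the spindle, rose by 0.64 after CD30L-Fc and by 0.84 after T104. HAUS8, an augmin subunit that helps microtubules branch, fell by 0.43 after CD30L-Fc and by 0.44 after PW30. CKAP2, a microtubule-binding spindle protein, fell by 0.60 after PW30, KIF2A, a microtubule-depolymerising kinesin, by 0.47 and RCC1, the exchange factor of Ran, by 0.42.

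For the preceding phase, 41 genes of G1/S and DNA replication were tested. After CD30L-Fc 3 rose and 0 fell, after T104 2 rose and 1 fell, and after PW30 4 rose and 2 fell. CCND2, a D-type cyclin, rose by 0.58 after CD30L-Fc, by 0.48 after T104 and by 0.41 after PW30. CDK6, the kinase that D-type cyclins activate, rose by 0.62, 0.74 and 0.44. CCNE1, the cyclin that activates CDK2, rose by 0.56 after CD30L-Fc and by 0.49 after PW30. LIG1, a DNA ligase of replication, fell by 0.43 after T104, and MCM2, a subunit of the replicative helicase, by 0.41 after PW30. The median of the list was -0.12 after CD30L-Fc, -0.16 after T104 and -0.10 after PW30. Whether it differs from that of the 40 members was not tested.

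CDKN1A, which encodes p21, an inhibitor of cyclin-dependent kinases, was the 1 gene called among 5 tested CDK inhibitors. It lay at 12.14 and 12.51 on the untreated arrays, 13.63 and 13.41 after CD30L-Fc, 13.43 and 13.61 after T104 and 13.79 and 13.40 after PW30. All 6 of these treated arrays lay above both untreated arrays. CDKN1A rose by 1.19 ± 0.17, 1.19 ± 0.17 and 1.27 ± 0.17 (adjusted p = 0.000574, 0.000548 and 0.000359). The differences of 0.30 after T427 and 0.22 after T408 were not called.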

How the data were processed

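RNA from 12 cultures of L540 cells, in 6 groups of 2, was labelled as biotinylated cRNA and hybridised to Illumina HumanHT-12 v3 BeadChips. Per the submitters' processing notes scans were read with GenomeStudio, while the design text names BeadStudio, both without a version. The deposited table before normalization lists a signal intensity and a detection p-value for 48780 probes on each array, per the file headers. A second deposited table, of signal intensity on a linear scale as processed by the authors, served as an alternative.

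With limma 3.58.1 under R 4.3.3, signals were corrected by normexp with negative-control moments derived from detection p-values. Quantile normalization and log2 followed after adding an offset of 16, which is the route of neqc. The filter on detection left 11949 probes, and each of 8113 genes was represented by its brightest probe. Of the probes 28082 carried 1 gene symbol, 13 several and 20685 none in the platform annotation; 28043 symbols were taken through the Entrez identifier from the RefSeq table of GRCh38.p14 and 39 were kept as given. A linear model of 6 group means over all 12 arrays was fitted with lmFit and eBayes, with two-sided tests and Benjamini-Hochberg adjustment within each comparison. Intervals are at 95%. The steps were tested on simulated data modelled on the T104 comparison (8113 genes), with 200 genes changed. Of 100 genes changed by 0.5 on the log2 scale 20% were recovered, and of 100 changed by 1 89% were. In the data themselves 766 genes were called after T104, so the recovered shares need not hold there. Precision is limited by the number of arrays.

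The members, lists, motifs and tests were chosen with earlier results of these data known, so they are a description and not an independent test. Every member was named, and of the other lists up to 4 called genes per list and comparison, by smallest p, with CDKN1A always. The replicate numbers were not treated as pairs in the main fit. The correlation of duplicate differences lay between -0.0758 and 0.107 over 15 pairs of groups and exceeded 0.1 in 1 of them. These values cannot show whether cultures with the same number were prepared together. The alternatives were no background correction, an offset of 50, median scaling, the authors' processed values, other probe filters and probe rules, a variance trend, a replicate block, adjustment over all comparisons, only the arrays compared, and leaving out each array.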

Additional observations from a re-analysis of the deposited data

How the results depend on the processing

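The called changes that are named, 8 of members and 39 of other pathway genes, kept their direction under the alternatives run. Differences that were not called were not all so stable, as given above for KIF4A, AURKA and the T408 median. Of the 8 called changes of members, the fall of CENPE after PW30 passed under all 16 alternatives, with log2 values from -0.79 to -0.53, and the other 7 were lost under at least 4. Of the 39 changes of other pathway genes 7 passed under all alternatives. These were the rises of CDKN1A and CDC14A after CD30L-Fc, T104 and PW30 and of CDK6 after T104. Most calls of members lay close to the threshold, and the number of arrays limits what could be called. The cause of the shifts below was not tested. Leaving out arrays and fitting fewer arrays reduce the sample, and adding dim probes enlarges the set of genes fitted and adjusted over.

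The main numbers of members called were 0 after CD30L-Fc, 3 after T104, 2 after PW30, 0 after T427, 0 after T408, 0 in the mean of the 5 treatments, 1 in the test over 6 groups and 3 in the 10 pairs of treatments. Both without background correction and with the authors' processed values, 1 member was called after CD30L-Fc, 4 after PW30, 2 in the mean, 3 over 6 groups and 6 in the pairs. With a trend in the variance prior the numbers were 2 after CD30L-Fc, 5 after PW30, 2 in the mean, 4 over 6 groups and 8 in the pairs. Median scaling, an offset of 50 and only the probes detected on all 12 arrays each gave 1 in the mean. Without a filter on dim probes the numbers were 0 after T104, 1 after PW30, 0 over 6 groups and 0 in the pairs. With adjustment over every detected probe, 0 members were called after T104 by their brightest probe, while the second probe of CDC25C was called. With the mean of a gene's probes 0 were called over 6 groups. With adjustment over all 15 comparisons 0 were called after T104 and 1 after PW30. With only the arrays of the groups compared the numbers were 0 after T104, 1 after PW30 and 1 in the pairs.

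With the replicate block 0 members were called after T104, and no other count of members moved by over 1.5 times. The call of KIF20A between PW30 and T408 was also lost with the block (adjusted p = 0.0595). Whether the replicate numbers pair the samples is not known, so the block is given only as an alternative. Leaving out 1 array gave 0 to 1 after T104, 1 to 2 after PW30, 0 to 1 in the mean, 0 to 1 over 6 groups and 1 to 2 in the pairs, and 0 after CD30L-Fc, T427 and T408. The T104 calls of CENPE, CCNA2 and CDC25B were lost in each fit without an untreated or T104 array. A T104 count above 0 in such a fit thus stands for another member. The count after PW30 was 1 without untreated array 2 or PW30 array 2.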
